A study of Mus musculus with 17 samples.

Results

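The comparison set 4 mouse brain tumour libraries made with the full YAP-M construct against 3 libraries made with YAP-MΔIDR, the same construct without its IDR. These are 7 of the 12 RNA-seq libraries and of the 17 samples of the series, and they were chosen by their titles alone, with every gene described. In the study, YAP-M stands for a fusion of YAP with the coactivator MAMLD1, and the IDR for an intrinsically disordered region of a fusion protein that can take part in forming liquid-like condensates. The YAP-M tumours arose after in utero electroporation, in which plasmid DNA is driven into the wall of the embryonic brain, so that only some cells near the ventricle receive it. For the YAP-M-dIDR libraries the labels name brain tumour tissue as the source and, as the tissue, neural progenitors grown from embryonic stem (ES) cells and overexpressing YAP-MΔIDR. The construct and the material can therefore not be told apart in this comparison. The strain, the age of the animals and the promoter of the constructs are not given in the labels. Whether replicates are separate animals or cultures is not stated, so p-values measure the spread between libraries, part of which may be technical. In the main edgeR test that spread was estimated over all 12 RNA-seq libraries.

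YAP is a transcriptional coactivator with no DNA-binding domain of its own. It is held in the cytoplasm by the kinases of the Hippo pathway, and in the nucleus it works through TEAD transcription factors, often beside AP-1 factors, at enhancers and promoters of genes for growth, adhesion and matrix. Supratentorial ependymoma is a tumour of the forebrain, and a subset of these tumours carries fusions in which YAP is joined to a partner protein. The comparison addressed which genes differ between the YAP-M tumours and the libraries made with the fusion without its disordered part.

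Total counts per library lay between 20784130 and 24606778 in the 7 libraries, and levels are given as CPM, the count of a gene scaled to a common library size, in the order of the replicate numbers. Y-linked genes were read in 1 library of each group: their summed level (4 genes) was 172 CPM in tumour 3 and 161 CPM in YAP-M-dIDR 3, and 0 to 0.315 CPM in the other 5. YAP-M-dIDR 1 stood apart from its group, with Spearman correlations across genes of 0.963 and 0.964 to the others, which had 0.982 between them. The tumours correlated at 0.970 to 0.988 with each other, and the 2 groups at 0.922 to 0.954. Both groups held transcripts of several brain cell types: 5 macrophage and microglia markers summed to 558 to 731 CPM in the tumours, 563 to 699 CPM in YAP-M-dIDR and at most 0.571 CPM in the ES-derived progenitors that overexpressed YAP. For 4 endothelial markers the sums were 107 to 149.8, 54.9 to 83.4 and at most 4.93 CPM. The pluripotency markers Pou5f1, Nanog and Zfp42 summed to 0.631 to 1.49 CPM in the tumours and 0.221 to 0.427 CPM in YAP-M-dIDR. In these 3 sets YAP-M-dIDR differed from the cultured progenitors and came closer to the tumours. The neural progenitor markers Nes, Sox2, Vim, Pax6 and Fabp7 went otherwise as a sum. It was 1702 to 2321 CPM in the tumours, 2710 to 3843 CPM in YAP-M-dIDR and 3757 to 3998 CPM in the cultured progenitors. Members of this set were uneven: Sox2 had 23.2 to 28 CPM, 5.27 to 14.3 CPM and 476 to 499.9 CPM in that order. Which label describes the material was not tested.

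Of 18329 genes tested, 1761 were higher in YAP-M tumours (9.61%) and 1242 lower (6.78%). Counts of calls in the gene lists below are to be read beside these 2 shares. Calls needed an adjusted p under 0.05 from edgeR's quasi-likelihood test together with at least a 2-fold difference, or 1 on the log2 scale. Fold changes are tumour over YAP-M-dIDR throughout. The median log2 fold change of all tested genes was 0.01, and 523 of the higher and 222 of the lower genes differed at least 4-fold. All 4 tumours lay above all 3 YAP-M-dIDR libraries at 3458 genes (18.9%) and below them at 4117 genes (22.5%). Without YAP-M-dIDR 1 the count of higher genes was 2566, and with these 7 libraries fitted alone it was 1242.

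Yap1 (ENSMUSG00000053110, mm10 chromosome 9, 7931999 to 8004596, minus strand), the gene whose sequence both constructs carry, was measured first. It stood at 92.9, 105, 98.2 and 92.7 CPM in the tumours and 183.5, 838 and 1274 CPM in YAP-M-dIDR, with means of 97.2 ± 5.77 CPM (SD, n = 4) against 765 ± 549 CPM (SD, n = 3). The tumours were close to one another, while the YAP-M-dIDR libraries spread widely and all lay above them (exact 2-sided permutation p = 0.0286, the smallest that this design allows). The log2 fold change was -2.98 ± 0.45 (SE), with an edgeR adjusted p = 0.000517. How many reads from the constructs the Yap1 row holds is unknown, since the labels do not give the species of their sequence. Mamld1, the gene of the fusion partner, had 35.3, 42.8, 28.4 and 32.1 CPM against 41.7, 58.9 and 49.2 CPM, and the groups overlapped.

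Canonical YAP targets were called higher at about the share of all genes. Among 22 YAP/TEAD target genes, 2 were higher in the tumours, where 9.61% of all tested genes were, none was lower and 20 were not called, with a median log2 fold change of 0.36 against 0.01 for all genes. At 9 of the 22 the groups did not overlap with the tumours higher, against 18.9% of all tested genes, and at 2 with the tumours lower, against 22.5%. Ankrd1, an ankyrin-repeat protein used as a standard readout of YAP activity, stood at 1269, 1097, 1249 and 961 CPM in the tumours and 1498, 1356 and 992 CPM in YAP-M-dIDR. The 2 ranges overlapped, and the log2 fold change was -0.16 ± 0.37 (SE). Ctgf, a secreted matricellular protein, overlapped as well, at 898, 881, 997 and 804 CPM against 801, 893 and 423 CPM, where YAP-M-dIDR 3 was the lowest library. Cyr61, its close relative, had 1049.7, 942, 1032 and 819 CPM against 619.9, 696 and 686 CPM. Every tumour lay above every YAP-M-dIDR library for Cyr61, by a log2 fold change of 0.53 ± 0.12 (SE), which is under the size needed for a call.

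The 2 targets that rose were Nt5e and Igfbp3. Nt5e (ENSMUSG00000032420), the surface enzyme CD73 that makes adenosine from AMP, had 131, 119.8, 116 and 89.7 CPM in the tumours and 26.03, 33.3 and 19.96 CPM in YAP-M-dIDR, a rise of 2.11 ± 0.18 (SE, log2). All of its tumour values were above all YAP-M-dIDR values, with an edgeR adjusted p = 2.8e-05. Igfbp3, a carrier protein of insulin-like growth factors, rose by 1.07 ± 0.17 (SE, log2), from 122 to 182 CPM to 258 to 369.7 CPM. Its fold change was 0.98 without tumour 2 and 0.99 without YAP-M-dIDR 2, just under the size for a call. Axl, a receptor tyrosine kinase, and Ajuba, a LIM protein that restrains Hippo signalling, were the 2 targets below YAP-M-dIDR in every tumour, at log2 fold changes of -0.69 ± 0.09 and -0.89 ± 0.16 (SE).

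**Figure D1:**
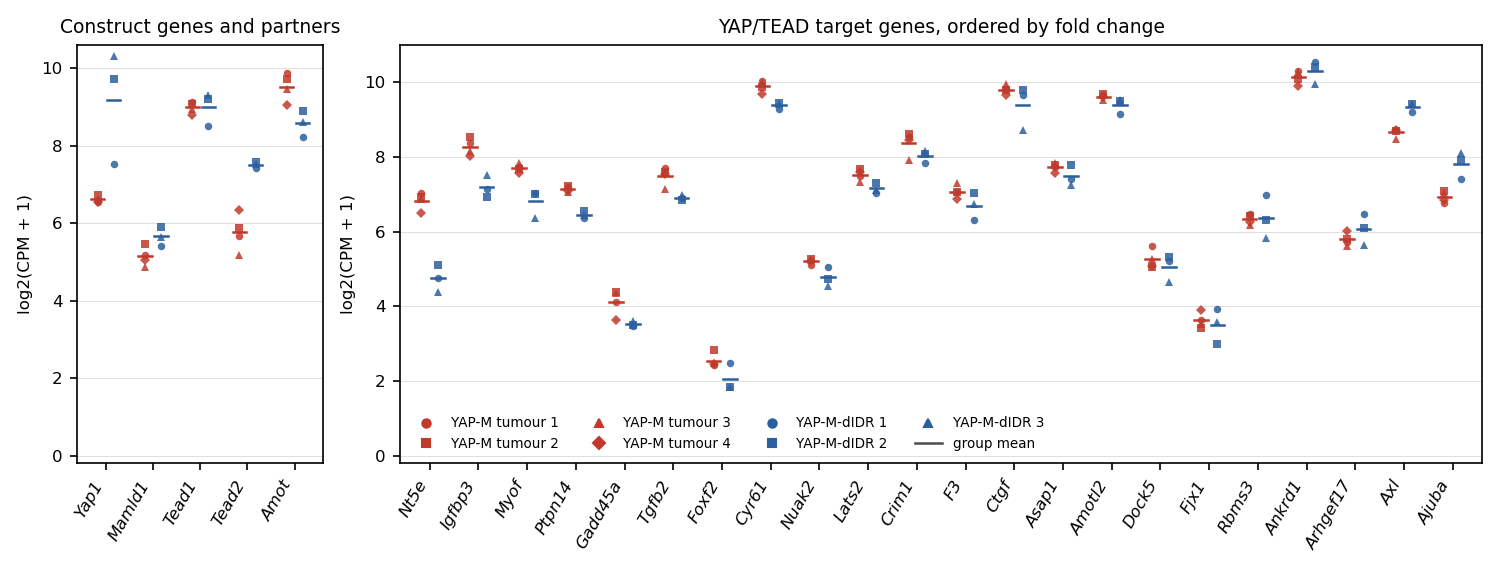
Level of Yap1, Mamld1, TEAD genes and Amot (left) and of 22 YAP/TEAD target genes (right) as log2(CPM + 1) on the vertical axis, with 1 point per library and a bar at the group mean, YAP-M tumours in red (n = 4) and YAP-M-dIDR in blue (n = 3). Yap1 is higher in all 3 YAP-M-dIDR libraries. Of the 22 targets 20 were not called, and Nt5e has the widest gap. The groups do not overlap at 9 targets with the tumours higher and at 2 with them lower.

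The promoters of Igfbp3, which was called, and of Ankrd1 and Cyr61, which were not, are shown. The TEAD core motif GGAATG, or its reverse complement CATTCC, is in capitals. Each is the plus or minus strand stretch of 250 bases that ends just before the RefSeq transcript start (GRCm38.p6), read 5′ to 3′, with no transcribed base.
Ankrd1, chr19:36119845-36120094, minus strand: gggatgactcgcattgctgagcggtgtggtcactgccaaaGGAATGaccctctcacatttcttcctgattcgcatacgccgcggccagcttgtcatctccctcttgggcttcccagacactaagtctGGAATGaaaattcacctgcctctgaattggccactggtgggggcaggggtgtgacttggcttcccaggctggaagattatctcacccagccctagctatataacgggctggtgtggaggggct
Cyr61, chr3:145649986-145650235, minus strand: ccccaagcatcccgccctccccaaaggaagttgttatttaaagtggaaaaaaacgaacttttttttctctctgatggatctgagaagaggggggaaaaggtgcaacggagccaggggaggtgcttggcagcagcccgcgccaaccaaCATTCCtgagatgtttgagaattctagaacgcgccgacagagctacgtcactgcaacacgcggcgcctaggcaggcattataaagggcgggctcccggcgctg
Igfbp3, chr11:7213924-7214173, minus strand: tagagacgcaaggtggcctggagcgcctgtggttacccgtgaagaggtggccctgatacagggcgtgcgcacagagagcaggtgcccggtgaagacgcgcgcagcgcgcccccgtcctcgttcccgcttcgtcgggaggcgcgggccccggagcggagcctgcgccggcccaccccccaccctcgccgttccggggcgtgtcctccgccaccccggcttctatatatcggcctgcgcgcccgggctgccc
The promoter of Ankrd1 holds the motif at 2 places, 210 and 123 bases before the start, and that of Cyr61 at 1 place, 103 bases before it. That of Igfbp3 holds none in this window. Nt5e, the other called target, is not shown, because its RefSeq start lay away from the gene start in the deposited tables. Of 12672 tested genes with a matched promoter, 10.9% held the motif on either strand, against 13.5% of the genes called higher and 13.9% of those called lower. Among the YAP/TEAD target genes 7 of the 16 with a matched promoter did. A match describes letters in the window and is not a measurement of binding.

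Upstream components and partners of YAP showed 2 calls, both lower in the tumours, of 19 Hippo pathway components, and 1 of them was Yap1. Tead2, a TEAD factor of early neural tissue, was the other, at 50.0, 57.8, 35.5 and 80.7 CPM in the tumours against 169.8, 191 and 182 CPM. It fell by 1.69 on the log2 scale (SE 0.22, edgeR adjusted p = 0.000211), with no overlap. Tead1 was at similar levels, 559, 542, 491 and 447 CPM against 365, 590.2 and 631 CPM. Amot, an angiomotin that tethers YAP at cell junctions, was at 932, 848, 706 and 525 CPM against 296, 472 and 394 CPM and just missed the size for a call (0.96). AP-1 factors split: Fosb rose by 1.84 ± 0.25 (SE, log2), while Fosl1, Batf and Batf3 were lower, at -1.09, -1.29 and -1.16. Without YAP-M-dIDR 1, 1 of these 3 falls was called, and Fosl1 was at -0.94 without tumour 1. None of 19 transcriptional coactivator genes was called (edgeR). None was called by DESeq2 either. In the edgeR test 5 were higher and 8 lower at an unadjusted p under 0.05, and 5 and 6 at an adjusted p under 0.05. By that adjusted p 20.6% of all tested genes were higher and 22.9% lower.

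HOX genes, which mark position along the body axis and are silent in normal forebrain, were divided by cluster. All 7 tested genes of the HoxD cluster, counted with its neighbour Evx2, were higher in the tumours (median log2 fold change 2.54). Of 9 tested HoxB genes, 8 were lower (median -2.77), as were 3 of 7 HoxC genes (median -1.10). Without YAP-M-dIDR 1 or YAP-M-dIDR 2, 6 HoxB genes were called lower. Without YAP-M-dIDR 3, 5 genes of HoxD with Evx2 were called higher. Of 10 HoxA genes, 1 was higher and none lower. The higher count was 2 without tumour 4 and 3 without YAP-M-dIDR 3 or without the 2 libraries with Y-linked transcripts. It was 0 with the 7 libraries fitted alone. The groups did not overlap at any of the 7 HoxD and Evx2 genes or the 8 HoxB genes called.

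Hoxd13, the most posterior gene of HoxD (ENSMUSG00000001819, mm10 chromosome 2, 74668310 to 74671599, plus strand), had the highest levels, at 64.3, 88.7, 72.0 and 41.4 CPM in the tumours against 25.7, 2.30 and 7.91 CPM in YAP-M-dIDR (2.47 ± 0.61, SE, log2). Its YAP-M-dIDR values were spread over a wide range, with library 1 the highest. Hoxd8 stood at 14.7, 17.01, 15.4 and 7.68 CPM against 2.99, 0.766 and 0.972 CPM, a rise of 3.11 ± 0.48 (SE, log2, edgeR adjusted p = 0.000577). Hoxd9 had 5.30, 6.78, 7.29 and 2.97 CPM against 2.14, 0.631 and 1.06 CPM. Tumour 4 was the lowest tumour at Hoxd8, Hoxd9 and Hoxd13, and still lay above all YAP-M-dIDR libraries. Evx2, a homeobox gene next to Hoxd13, followed the cluster, with 12.4, 18.97, 12.1 and 4.30 CPM against 2.39, 0.225 and 1.19 CPM. Without the 2 libraries with Y-linked transcripts, 3 of the 7 were called, and Hoxd9 was not (1.88).

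At the HoxB end the order was turned around. Hoxb9 (ENSMUSG00000020875, mm10 chromosome 11, 96271457 to 96276595, plus strand) had 2.98, 4.56, 3.62 and 8.68 CPM in the tumours and 39.7, 60.5 and 27.2 CPM in YAP-M-dIDR (log2 fold change -3.09 ± 0.41, SE). Hoxb8 stood at 0.993, 1.30, 1.11 and 3.23 CPM against 20.003, 29.4 and 12.4 CPM (-3.63 ± 0.48), and Hoxb6 at 1.25, 1.63, 1.28 and 1.97 CPM against 12.2, 25.2 and 10.6 CPM (-3.38 ± 0.35). YAP-M-dIDR 2 was the highest library for all 3. The exception in the cluster among tested genes was Hoxb13, which lies far from the others, at 3.90, 9.08, 5.75 and 5.83 CPM against 1.75, 8.74 and 7.11 CPM with overlapping groups. Summed over the cluster, HoxB genes reached 16.3 to 27.6 CPM in the tumours and 77.9 to 178 CPM in YAP-M-dIDR. HoxD genes with Evx2 reached 70.3 to 159.7 CPM and 4.23 to 39.8 CPM. HoxC calls were small, with Hoxc13 at 1.78 to 2.72 CPM against 4.64 to 5.04 CPM (-0.97 without tumour 4), and 1 was called without YAP-M-dIDR 3. HoxA genes were uneven within YAP-M-dIDR: Hoxa10 had 0.556, 2.79 and 11.97 CPM there and 12.6, 12.01, 9.16 and 8.61 CPM in the tumours, and was not called.

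**Figure D2:**
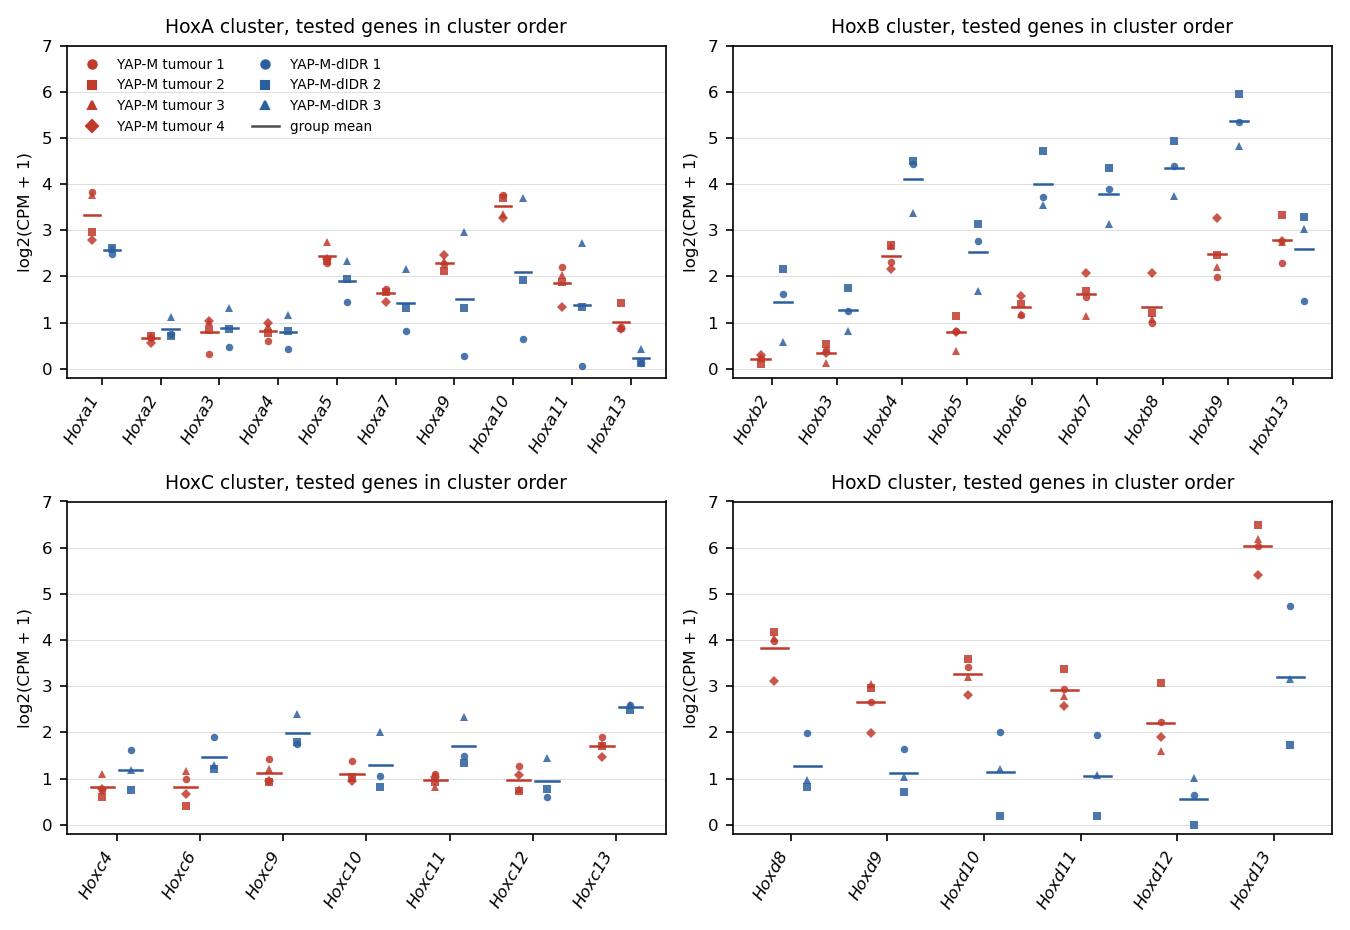
Level of each tested HOX gene as log2(CPM + 1), 1 panel per cluster with genes in their numbered order, 1 point per library and a bar at the group mean (YAP-M tumours red, n = 4, YAP-M-dIDR blue, n = 3). HoxD genes are higher in the tumours, HoxB genes except Hoxb13 are higher in YAP-M-dIDR, and HoxA and HoxC genes lie closer together.

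Several of the largest rises were in genes known from epithelia and the placenta. Of the 12 genes with the largest rise, Krt8 and Krt20 are keratins, Cldn4 is a tight junction claudin, Gjb2 a connexin, Tmprss2 a membrane protease, and Hand1 and Esx1 are transcription factors known from the placenta. These levels varied many-fold among the tumours themselves. Krt8 (ENSMUSG00000049382) stood at 199, 93.8, 531 and 72.0 CPM in the tumours and 5.39, 11.6 and 7.99 CPM in YAP-M-dIDR, a rise of 4.75 ± 0.72 (SE, log2, edgeR adjusted p = 0.000509). Tmprss2 had 4.75, 1.67, 12.9 and 1.52 CPM against 0, 0.135 and 0.0442 CPM, and Hand1 17.6, 1.67, 16.5 and 0.557 CPM against 0.0855, 0.180 and 0.0883 CPM. Tumour 3 was the highest or, for Hand1 and Musk, the second highest library at all 12 genes, and tumour 4 was the lowest at all 12. The rises of Tmprss2 and Hand1 came to 6.34 ± 1.18 and 6.21 ± 1.33 (SE, log2).

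Plet1, an epithelial and trophoblast surface protein, ran from 2.23 to 101.2 CPM in the tumours and 0.721 to 1.24 CPM in YAP-M-dIDR (5.28 ± 1.18, SE, log2). Cldn4 ran from 4.19 to 29.1 against 0.180 to 0.618 CPM (4.98 ± 0.78), and Gjb2 from 21.97 to 95.1 against 0.721 to 4.74 CPM (4.33 ± 0.62). Vnn1, a pantetheinase, was more abundant, at 163.3, 109.9, 341 and 51.5 CPM against 24.9, 2.30 and 4.42 CPM. Musk, the receptor kinase of the neuromuscular synapse, had 9.23, 14.8, 14.7 and 2.56 CPM against 0.470, 0.225 and 0.397 CPM, and Oit3 15.6, 20.1, 20.3 and 3.78 CPM against 0.556, 0.405 and 0.353 CPM. Sh2d4a, an SH2 adaptor, completed the 12 with 2.43, 3.93, 13.6 and 1.93 CPM against 0.385, 0.180 and 0.0442 CPM. The groups did not overlap at any of these genes, which the rule for naming them required.

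Keratins as a family had 6 members higher and 1 lower of 15 tested. Krt18, the partner of Krt8 in simple epithelia, rose with it, at 369, 259, 872 and 193 CPM against 123, 83.1 and 69.8 CPM (2.20 ± 0.52, SE, log2). Krt14, a keratin of basal epithelial cells, went the other way, with 5.26, 1.67, 14.1 and 2.52 CPM against 36.5, 28.7 and 26.7 CPM (-2.38 ± 0.59). Among claudins and cadherins 11 were higher and 2 lower of 33 (4 lower without YAP-M-dIDR 1 and 1 without YAP-M-dIDR 3), with Cdh8, a neural cadherin, at 27.6, 32.01, 17.9 and 18.9 CPM against 4.62, 0.721 and 1.85 CPM. Trophoblast-type genes were mixed, 5 higher and 3 lower of 17 tested, of 68 listed. Without the Y-linked libraries 3 were called higher, and without YAP-M-dIDR 1 or YAP-M-dIDR 2 the count of lower ones was 1. Pluripotency and germ cell genes had 6 higher and none lower of 14 tested, and 2 higher without the Y-linked libraries. Ddx4, a germ cell helicase, had 5.003, 5.37, 16.1 and 2.67 CPM against 1.07, 1.40 and 2.08 CPM.

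**Figure D3:**
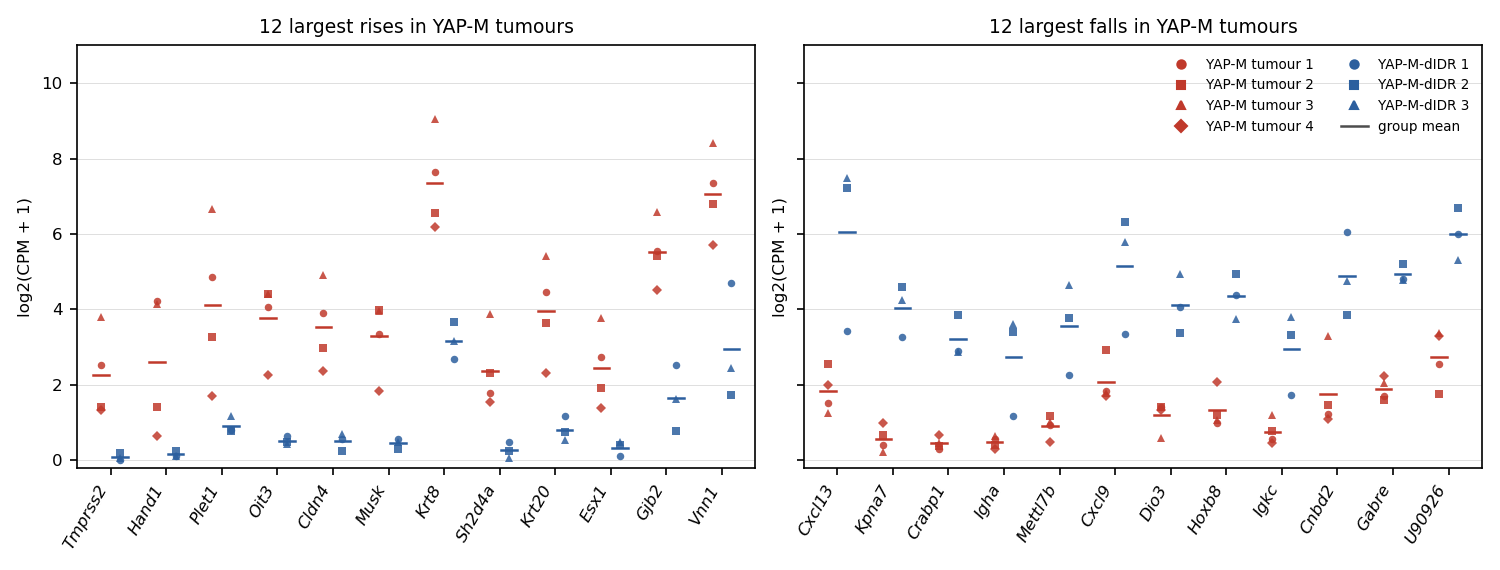
Level as log2(CPM + 1) of the 12 called genes with the largest rise (left) and the largest fall (right) in YAP-M tumours whose groups do not overlap, 1 point per library with a bar at the group mean (tumours red, n = 4, YAP-M-dIDR blue, n = 3). Among the rises the tumours spread over several log2 units, with tumour 3 at or near the top and tumour 4 at the bottom. Among the falls YAP-M-dIDR 1 is the lowest YAP-M-dIDR library for Cxcl13, Kpna7, Igha, Mettl7b, Cxcl9 and Igkc.

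Genes with the largest falls belonged to several classes. Crabp1, which binds retinoic acid in the cytoplasm, had 0.221, 0.296, 0.384 and 0.594 CPM in the tumours and 6.45, 13.4 and 6.27 CPM in YAP-M-dIDR (log2 fold change -4.53 ± 0.37, SE, edgeR adjusted p = 2.8e-05). Kpna7, an importin of the early embryo, had 0.331, 0.593, 0.170 and 0.965 CPM against 8.63, 23.0 and 17.9 CPM. Gabre, a GABA receptor subunit, was even within each group, at 2.24, 2.001, 3.11 and 3.71 CPM against 27.2, 35.9 and 26.6 CPM (-3.43 ± 0.26). Dio3, the enzyme that inactivates thyroid hormone, had 1.66, 1.67, 0.511 and 1.52 CPM against 15.6, 9.42 and 29.5 CPM. The remaining falls, U90926, Mettl7b and Cnbd2, came to -3.43 ± 0.50, -3.90 ± 0.58 and -3.44 ± 0.72 (SE, log2).

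Cxcl13, the chemokine that attracts B cells, had the largest fall of all (-5.33 ± 0.80, SE, log2). It stood at 1.84, 4.89, 1.36 and 3.01 CPM in the tumours and at 9.79, 148 and 179 CPM in YAP-M-dIDR, where library 1 was far below the others. Cxcl9, an interferon-induced chemokine for T cells, also had YAP-M-dIDR 1 as the lowest library of its group, with 2.58, 6.595, 2.43 and 2.26 CPM against 9.15, 78.97 and 54.4 CPM. Igha and Igkc, immunoglobulin chains of plasma cells, stood at 0.478, 0.333, 0.554 and 0.223 CPM against 1.24, 9.64 and 11.1 CPM and at 0.478, 0.704, 1.28 and 0.371 CPM against 2.31, 8.92 and 12.8 CPM. Cell numbers and RNA per cell cannot be told apart in bulk tissue, here or in the lists that follow.

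Immune genes were counted by family, where 6.78% of all tested genes were called lower and 9.61% higher. Chemokine ligands had 9 lower and 1 higher of 32 tested (median -0.72), and the TNF superfamily 8 lower and 2 higher of 32 (median -0.43). Interleukins and their receptors had 5 lower and 2 higher of 43, with a median of 0.19, and when single libraries were left out 4 to 6 were lower and 1 to 4 higher, with 4 higher without tumour 4. Histocompatibility (MHC) genes had 9 lower and none higher of 30 (median -0.69), but between 2 and 5 were called without tumour 1, tumour 3, YAP-M-dIDR 2 or YAP-M-dIDR 3. Of 32 interferon-stimulated genes 4 were lower and 1 higher. Without tumour 2 the count of lower ones was 7, and without YAP-M-dIDR 1 it was 8. The 1 higher was Rsad2, which makes an antiviral nucleotide (1.03 ± 0.23, SE, log2), whose call was lost without tumour 2, tumour 4 or YAP-M-dIDR 1. When single libraries were left out 0 to 2 genes were higher, with none without tumour 2.

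The monocyte attractants Ccl12 and Ccl2 were even within groups. Ccl12 had 7.17, 13.4, 8.10 and 10.5 CPM in the tumours against 35.2, 41.4 and 38.95 CPM (-1.97 ± 0.23, SE, log2), and Ccl2 8.31, 8.30, 11.3 and 7.50 CPM against 20.2, 24.01 and 18.7 CPM (-1.25 ± 0.26). Cxcl1, a neutrophil attractant, was the one chemokine that rose, at 12.7, 13.6, 13.7 and 11.4 CPM against 8.04, 2.84 and 2.30 CPM, a call lost without YAP-M-dIDR 2 (1.34) or YAP-M-dIDR 3 (1.23). H2-K1, an MHC class I chain, had 178, 206, 124 and 196 CPM against 321, 396 and 414 CPM, with a log2 fold change of -0.95 without tumour 3. Ciita, the master regulator of MHC class II, was at 0.625, 0.926, 0.426 and 0.371 CPM in the tumours, and at 0.684, 8.11 and 5.08 CPM in YAP-M-dIDR, where library 1 lay within the tumours' range. Il1rn, the antagonist of the interleukin-1 receptor, had 4.60, 5.89, 4.52 and 4.75 CPM against 15.9, 29.6 and 23.7 CPM. The FN14 receptor gene Tnfrsf12a had 50.6, 64.2, 50.7 and 69.8 CPM against 127, 145.1 and 147 CPM (-1.25 ± 0.14), with a narrow spread in both groups.

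Macrophage and microglia genes as a list did not shift in the same way. Of 25 tested, 2 were higher and 2 lower (median -0.04). When single libraries were left out 1 to 4 were higher, with 4 without YAP-M-dIDR 1, and 0 to 2 lower, with none without tumour 3. Their summed level was 6067 to 7980 CPM in the tumours and 4251 to 8198 CPM in YAP-M-dIDR. Mrc1, the mannose receptor of border-associated macrophages, was nonetheless higher, at 48.2, 38.1, 37.9 and 68.2 CPM against 7.86, 10.5 and 10.03 CPM (2.34 ± 0.26, SE, log2). Of 18 lymphocyte genes 3 passed the filter on low counts and none was called by edgeR. DESeq2 called none of them. In the edgeR test 0 higher and 2 lower had an unadjusted p under 0.05, and without YAP-M-dIDR 1 that test called 2 lower. In the main fit 2 were lower at an edgeR adjusted p under 0.05, where 22.9% of all tested genes were. At 2 the groups did not overlap with the tumours lower, against 22.5%, so the limit on size kept them from a call. The 2 with an unadjusted p under 0.05 were Lck, a T cell kinase, with 2.69, 2.59, 2.26 and 2.67 CPM against 3.33, 4.78 and 6.09 CPM and Trac, a T cell receptor chain, with 1.25, 1.07, 1.32 and 0.853 CPM against 1.41, 2.43 and 2.69 CPM. The part of immune cells in the chemokine, MHC and immunoglobulin differences was not tested.

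Members of the Wnt, FGF and Hedgehog pathways were called higher in the tumours more often than lower. The same held for all tested genes, of which 9.61% were higher and 6.78% lower. Wnt ligands, receptors and antagonists had 16 members higher and 1 lower of 46 tested, with a median log2 fold change of 0.74. The count ran from 11 to 24 when single libraries were left out, with the most without YAP-M-dIDR 1, and was 11 with the 7 libraries fitted alone. Lgr4, a receptor for R-spondins that amplify Wnt signals, had 49.6, 43.1, 35.7 and 43.3 CPM in the tumours and 24.2, 15.4 and 12.4 CPM in YAP-M-dIDR (1.31 ± 0.21, SE, log2). The frizzled receptors divided: Fzd1 had 50.0, 72.9, 31.1 and 50.98 CPM against 24.96, 13.3 and 14.8 CPM and Fzd8 35.1, 41.9, 34.4 and 36.96 CPM against 21.5, 15.2 and 8.52 CPM, while Fzd2 was lower, at 32.2, 41.4, 29.3 and 44.5 CPM against 87.3, 71.7 and 84.0 CPM (-0.99 without the Y-linked libraries). Direct Wnt target genes were among those higher, with Lef1 at 1.42 ± 0.29, Axin2 at 1.12 ± 0.37 and Rnf43 at 1.85 ± 0.49 (SE, log2). The ligands higher included Wnt7b (29.5 to 72.4 CPM against 9.24 to 23.98 CPM) and Wnt16 (1.79 to 9.13 CPM against 0.486 to 1.67 CPM). The genes of the last 2 sentences were chosen after their values were seen.

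Fibroblast growth factor (FGF) ligands, receptors and feedback genes had 9 higher and 1 lower of 31, and 5 higher with the 7 libraries fitted alone. Fgfr2 was the most abundant of those named, at 152, 170.3, 145.3 and 126.4 CPM against 45.05, 61.9 and 41.6 CPM (1.59 ± 0.15, SE, log2, edgeR adjusted p = 5.26e-05). The ligands Fgf5 and Fgf16 rose as well, Fgf5 to 4.01, 4.34, 5.16 and 3.12 CPM from 0.641, 0.946 and 0.707 CPM and Fgf16 to 2.98, 4.34, 4.52 and 1.22 CPM from 0.342, 0 and 0.221 CPM. Etv4, an ETS factor induced by FGF signals, was the member that fell, with 9.71, 7.60, 8.01 and 11.8 CPM in the tumours against 20.05, 23.1 and 34.1 CPM. These receptor and ligand genes thus lay above YAP-M-dIDR while this target gene lay below.

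Of 14 Hedgehog pathway genes 4 were higher and 1 lower. Ptch1, the Hedgehog receptor and itself a target of the pathway, had 51.5, 52.7, 51.9 and 38.6 CPM against 16.7, 15.3 and 17.7 CPM (1.56 ± 0.13, SE, log2, edgeR adjusted p = 3.02e-05), and Gli3 had 29.7, 28.7, 23.7 and 24.3 CPM against 11.97, 10.9 and 9.67 CPM. The groups were well apart for both genes. Dhh, a Hedgehog ligand, was lower at 1.21, 0.778, 1.53 and 1.08 CPM against 1.92, 3.604 and 18.3 CPM, where YAP-M-dIDR 3 stood far above the others.

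Of 18 tested genes of the retinoic acid pathway 7 were higher and 4 lower (median log2 fold change 0.05), and 2 were lower without YAP-M-dIDR 2. Rdh10, which makes retinal, was among those higher. It had 60.96, 60.4, 42.95 and 56.2 CPM in the tumours against 28.7, 17.03 and 13.96 CPM, and Cyp26a1, which degrades retinoic acid and is induced by it, had 3.13, 3.89, 3.03 and 3.67 CPM against 0.299, 0.405 and 0.662 CPM (2.90 ± 0.42, SE, log2). The aldehyde dehydrogenases Aldh1a1, Aldh1a2 and Aldh1a3, which make retinoic acid, were called higher, at 1.73, 1.498 and 2.30. These 3 genes were named after their values were seen. The receptors split, with Rarb, itself a retinoic acid target, at 1.03, 1.0004, 1.96 and 0.668 CPM against 0.214, 0.225 and 0.265 CPM, and Rara lower at 12.1, 17.04, 13.4 and 19.5 CPM against 41.1, 29.4 and 35.7 CPM. Rarg was lower too (-1.04), though its size fell under 1 without tumour 1, tumour 3 or YAP-M-dIDR 2 or 3 (-0.995 to -0.877). The binding protein Crabp1, described above, was lower.

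Ephrins and Eph receptors, which set tissue boundaries, had 5 lower and 2 higher of 22. Ephb4, a receptor of veins and progenitors, had 20.8, 21.1, 12.6 and 32.7 CPM in the tumours against 61.2, 67.8 and 74.4 CPM (-1.64 ± 0.24, SE, log2), and the ligand gene Efna2 3.02, 2.04, 1.87 and 5.60 CPM against 14.9, 17.5 and 11.7 CPM. The falls numbered 5 whichever library was left out, while the rises numbered 6 without YAP-M-dIDR 1. Bone morphogenetic protein (BMP) ligands, antagonists and ID genes had 7 higher and 4 lower of 31. Id2, a BMP-responsive inhibitor of differentiation, had 106, 99.7, 118.7 and 134 CPM against 62.1, 31.2 and 36.3 CPM (1.41 ± 0.21), and Gdf15 1.25, 1.96, 1.36 and 1.41 CPM against 4.62, 2.70 and 5.48 CPM. Without YAP-M-dIDR 2, 2 BMP genes were lower. In the Notch pathway 2 were higher and 1 lower of 25 (1 higher without YAP-M-dIDR 2 or YAP-M-dIDR 3), and in TGF-beta and activin signalling 1 each of 26. For the latter the counts were 4 higher and 2 lower without YAP-M-dIDR 1, and 3 and 2 were higher without tumour 3 and without tumour 4. Gdf11, a ligand of the activin branch, fell, at 13.8, 15.2, 15.2 and 18.3 CPM against 36.6, 35.9 and 39.7 CPM.

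**Figure D4:**
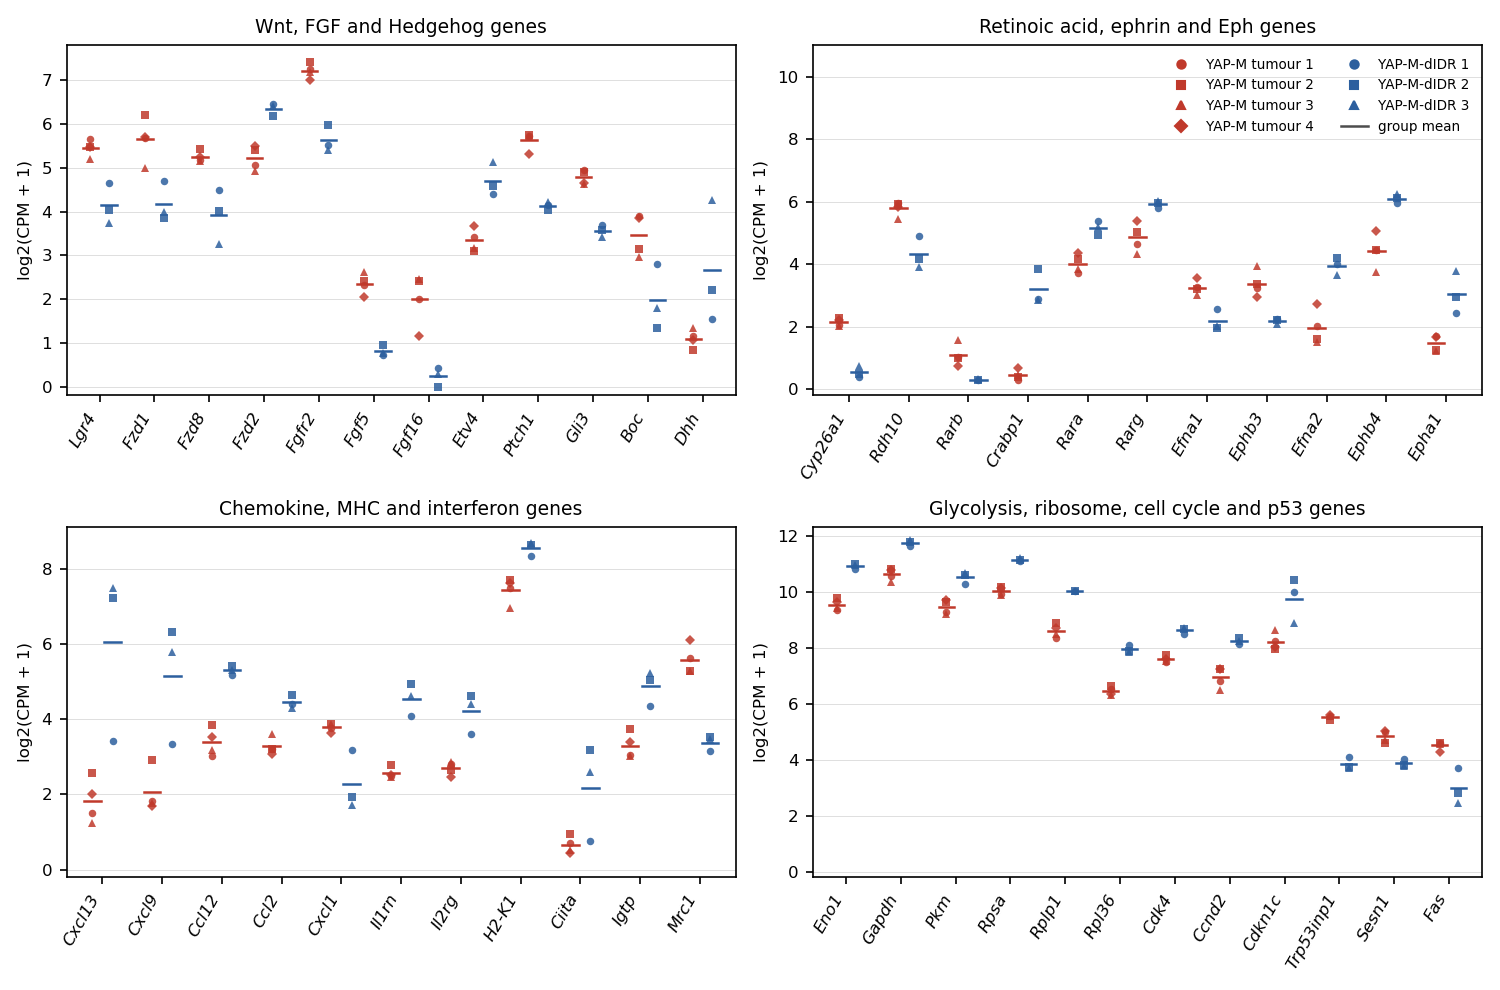
Level as log2(CPM + 1) of named genes of signalling, immune, metabolic and cell cycle lists in 4 panels, 1 point per library with a bar at the group mean (YAP-M tumours red, n = 4, YAP-M-dIDR blue, n = 3). Fgfr2, Ptch1 and Cyp26a1 are separated with the tumours higher, Ccl12, Crabp1, Eno1, Rplp1 and Cdk4 with YAP-M-dIDR higher, and Cxcl13 and Ciita have YAP-M-dIDR 1 apart from the other YAP-M-dIDR libraries.

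In CPM the widest gaps were in abundant genes, all higher in YAP-M-dIDR. The 8 called genes with the largest difference in mean CPM were Igf2, Gapdh, Rpsa, Eno1, Rps2, Tmsb10, Pkm and Calr. These calls depended on the scaling. With quantile normalization Igf2 (-0.99), Rpsa (-0.96), Rps2 (-0.82), Tmsb10 (-0.74), Pkm (-0.83) and Calr (-0.70) were under the size for a call. Eno1, a glycolytic enolase, had 641, 871, 687 and 786 CPM in the tumours and 1779, 2007 and 1959.9 CPM in YAP-M-dIDR (-1.36 ± 0.11, SE, log2, edgeR adjusted p = 2.7e-05). Gapdh, another enzyme of the pathway, had 1498, 1773, 1300.1 and 1733 CPM against 3133, 3503 and 3627 CPM, and Pkm, which makes pyruvate, 621, 793, 588 and 829 CPM against 1240.1, 1541 and 1615 CPM. The groups did not overlap at any of these 3. Gapdh was at -0.97 without the 2 libraries with Y-linked transcripts, and Pkm was under a size of 1 without tumour 1, tumour 3, YAP-M-dIDR 2 or YAP-M-dIDR 3. Of 26 glycolysis and hypoxia genes 5 were lower and none higher (median -0.39), and 9 were lower without tumour 2. Tmsb10, which binds actin monomers, Calr, a chaperone of the endoplasmic reticulum, and Rps2, a ribosomal protein, had fold changes near the limit (-1.05, -1.01 and -1.05). Tmsb10 was under a size of 1 without tumour 3 or YAP-M-dIDR 1, Calr without tumour 3, tumour 4, YAP-M-dIDR 1 or YAP-M-dIDR 2, and Rps2 without tumour 1, tumour 4 or YAP-M-dIDR 3.

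Cytosolic ribosomal protein genes were lower in the tumours as a group. Of 78 tested, 9 were called lower and none higher, with a median log2 fold change of -0.63, and 4 were called lower with quantile normalization. The shift was broad and small: 69 had an adjusted p under 0.05 in the edgeR test with the tumours lower, a rule that 22.9% of all tested genes met. At 65 the groups did not overlap with the tumours lower, against 22.5% of all tested genes. Their summed level was 27554 to 32048 CPM in the tumours and 43421 to 47132 CPM in YAP-M-dIDR. Rplp1, a protein of the ribosomal stalk, had 326, 471, 361 and 411 CPM against 1039, 1030.2 and 1029.6 CPM (-1.40 ± 0.12, SE, log2), and Rpl36 89.9, 98.6, 77.3 and 80.3 CPM against 274, 236 and 228 CPM. Respiratory chain genes of the nucleus had 2 called lower of 74 (median -0.22). By the edgeR adjusted p alone 32 were lower and 5 higher, where 22.9% and 20.6% of all tested genes were. At 36 the groups did not overlap with the tumours lower and at 5 with them higher, against 22.5% and 18.9%. Respiratory chain genes of the mitochondrial genome had none called of 13 by edgeR or DESeq2 (1 higher and 3 lower at an unadjusted edgeR p under 0.05). Ribosomal protein genes have many near-identical pseudogenes, so the counts of single members are uncertain.

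Short genes were called lower in the tumours more often than long ones. With the tested genes divided into 5 equal classes by the length in the deposited tables, 11.1% of the shortest class (up to 1793 bases) were called lower in the tumours and 7.99% higher. In the longest class (from 6741 bases) 2.78% were lower and 11.5% higher. The median log2 fold change went from -0.19 in the shortest to 0.22 in the longest class. In every tumour the median of the shortest class lay below the mean of the 7 libraries and the longest above it, and in every YAP-M-dIDR library the reverse held. Ribosomal protein genes had a median length of 1736 bases against 3732 for all tested genes. With each library's trend with gene length removed, their median log2 fold change was -0.57 and 6 were called lower. This alternative was chosen after seeing the data.

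**Figure D5:**
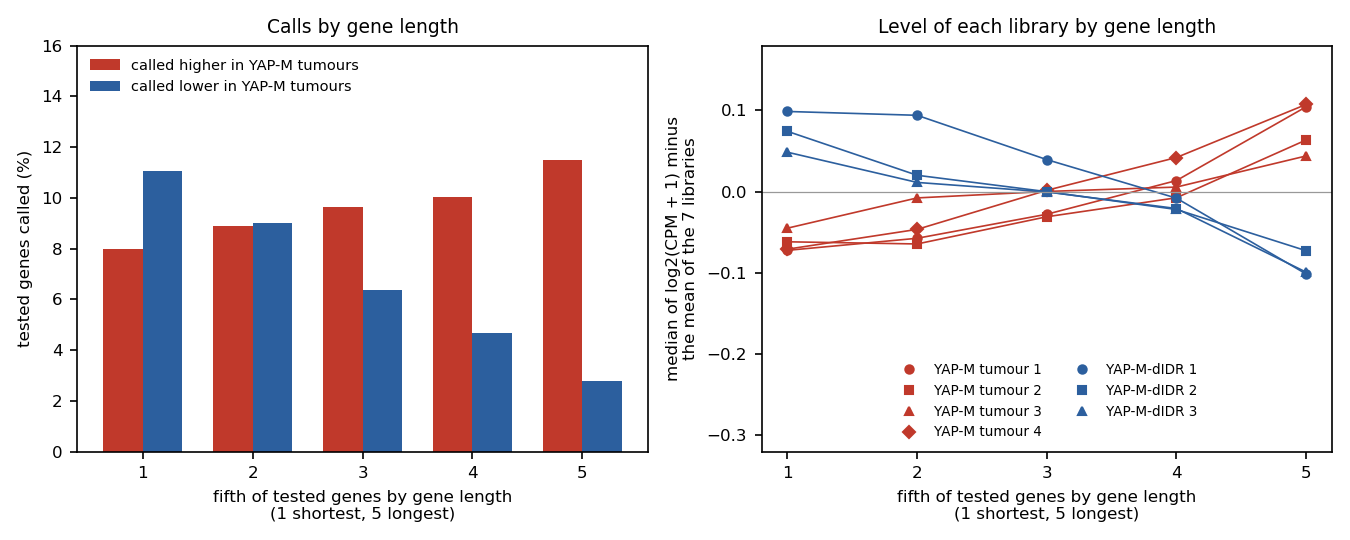
Share of tested genes called higher or lower in YAP-M tumours (left, percent) and median deviation of each library from the mean of the 7 libraries in log2(CPM + 1) (right), by 5 length classes of the 18329 tested genes. Calls lower in the tumours fall from 11.1% to 2.78% from the shortest to the longest class, and the lines of the 4 tumours and the 3 YAP-M-dIDR libraries cross between them.

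Few proliferation genes were called, while some regulators of the G1 phase were lower and some p53 targets higher. Of 26 DNA replication and mitosis genes 1 was called, Cdc6, a licensing factor, lower at 7.54, 7.52, 8.48 and 5.23 CPM against 10.1, 19.6 and 21.4 CPM. Mki67, the Ki-67 antigen, overlapped at 219, 215, 175 and 152 CPM against 82.4, 146 and 180.5 CPM. Cdk4 and Ccnd2, a kinase and a cyclin that drive G1, were both lower in the tumours: Cdk4 had 178, 209.6, 182 and 193 CPM against 360.3, 407 and 409.6 CPM (-1.04 ± 0.09, SE, log2) and Ccnd2 111, 148, 87.5 and 150.02 CPM against 275, 323 and 299.9 CPM (-1.27 ± 0.18). Cdk4 was close to the limit and fell under a size of 1 without tumour 1, tumour 3 or YAP-M-dIDR 2. The inhibitor Cdkn1c was lower as well, at 297, 244, 391.7 and 258 CPM against 1002, 1345 and 470.4 CPM. Of 16 p53 targets 5 were higher and none lower (median 0.59). Trp53inp1, a p53-induced nuclear protein, had 45.7, 41.6, 45.9 and 47.2 CPM against 16.1, 12.2 and 11.9 CPM (1.75 ± 0.12, SE, log2, edgeR adjusted p = 1.28e-05), with a narrow spread in both groups. Fas, a death receptor, had 23.2, 22.9, 22.4 and 18.5 CPM against 11.8, 5.95 and 4.42 CPM. Cdkn1a, the p21 inhibitor, was not called (0.30 ± 0.39).

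Chromatin and stress genes showed single large gaps. Cbx2, a Polycomb subunit that reads histone marks, had 3.75, 4.22, 3.71 and 5.90 CPM in the tumours against 17.01, 23.9 and 27.8 CPM (-2.38 ± 0.20, SE, log2, edgeR adjusted p = 2.81e-05). Uhrf1, which recruits the maintenance DNA methyltransferase, was lower too, at 39.7, 41.2, 32.3 and 31.1 CPM against 62.5, 87.3 and 95.0 CPM (-0.97 without the Y-linked libraries). Hmga1, a chromatin protein of embryonic cells, had 66.8, 77.9, 80.2 and 76.1 CPM against 195, 245 and 497 CPM, with YAP-M-dIDR 3 the highest. Dnmt3b and Dnmt3l, of the de novo methylation machinery, were higher, with the highest levels in tumours 1 and 3. Dnmt3l had 4.23, 0.371, 11.5 and 0.223 CPM against 0.0855, 0.0450 and 0.132 CPM and Dnmt3b 17.4, 6.67, 27.7 and 3.71 CPM against 2.69, 2.66 and 4.02 CPM. The call of Dnmt3l was lost without YAP-M-dIDR 2 (5.20). Of 20 genes of the ATF4 amino acid response 5 were lower and 1 higher, and 2 were lower without YAP-M-dIDR 3. Atf5, a factor of that response, had 20.1, 23.0, 17.4 and 22.5 CPM against 68.1, 57.0 and 59.2 CPM (-1.57 ± 0.11), and Slc7a11, the cystine transporter, 15.05, 16.6, 14.4 and 15.1 CPM against 31.1, 40.2 and 40.1 CPM. Gclc, the enzyme that begins glutathione synthesis, was higher at 65.3, 70.6, 80.7 and 61.6 CPM against 23.6, 26.3 and 22.9 CPM (1.52 ± 0.11). Cholesterol synthesis genes had 3 lower and none higher of 20 (median -0.56), and 5 lower without YAP-M-dIDR 1. Fdps, which makes farnesyl diphosphate, had 4.86, 5.71, 5.16 and 7.72 CPM against 13.5, 17.9 and 20.2 CPM.

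Imprinted genes of one locus went opposite ways. Igf2, a fetal growth factor expressed from the paternal chromosome, had 3339, 3152, 2141 and 2826 CPM in the tumours against 6846, 6283 and 10357 CPM (-1.45 ± 0.23, SE, log2). Its neighbour H19, a noncoding RNA expressed from the maternal chromosome, was higher in the tumours, at 169.9, 333, 215 and 235 CPM against 120.3, 79.1 and 33.8 CPM (1.62 ± 0.35). Neither gene's groups overlapped, and YAP-M-dIDR 3 had both the most Igf2 and the least H19. Igf2 was at -0.99 with quantile normalization, under the size for a call. Across 30 oncofetal and imprinted genes 7 were higher and 4 lower. Peg3, a paternally expressed zinc finger gene, was higher at 158, 166, 201 and 189 CPM against 77.6, 66.7 and 20.5 CPM.

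Matrix and adhesion genes were mixed, where 9.61% of all tested genes were called higher and 6.78% lower. Collagen chains had 6 higher and 1 lower of 43, with 12 higher without YAP-M-dIDR 1 and 3 without YAP-M-dIDR 3. Col2a1, the collagen of cartilage, had 39.8, 82.7, 23.4 and 111 CPM against 9.32, 11.6 and 4.64 CPM (2.91 ± 0.50, SE, log2), and Col7a1, of anchoring fibrils, was lower at 15.5, 20.7, 14.9 and 24.5 CPM against 45.1, 74.4 and 74.3 CPM. Lamc1, a laminin chain of basement membranes, was higher at 429.8, 273, 381 and 187 CPM against 107, 120.1 and 114 CPM. Integrins had 3 higher and 3 lower of 24. The collagen receptor subunits Itga1 and Itga2 were higher, Itga1 at 335, 307, 222 and 241 CPM against 97.7, 38.7 and 28.8 CPM, while the fibronectin receptor subunit Itga5 was lower, at 53.9, 58.3, 48.9 and 57.3 CPM against 106, 102 and 121 CPM, with a fold change at the limit (-1.005) that was under a size of 1 without tumour 1, tumour 3 or YAP-M-dIDR 3. Lgals1, a galectin, fell in every tumour below YAP-M-dIDR, at 245, 269, 271 and 356 CPM against 784, 910.3 and 859.5 CPM (-1.58 ± 0.13, SE, log2, edgeR adjusted p = 2.58e-05). Actomyosin and smooth muscle genes had 5 lower and none higher of 20 (median -0.48), and 3 lower without YAP-M-dIDR 1. Myh11, the smooth muscle myosin, had 111, 145.4, 72.0 and 132 CPM against 283, 354 and 271 CPM, and Actg2, an enteric smooth muscle actin, 89.8, 66.6, 53.4 and 118 CPM against 435, 371 and 143 CPM. Heart genes differed by gene, with Gata6 higher at 19.4, 18.2, 29.2 and 8.87 CPM against 1.75, 3.20 and 4.68 CPM and Nkx2-5 lower at 5.81, 5.37, 6.14 and 7.24 CPM against 38.5, 39.1 and 13.3 CPM.

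Neural identity was split between progenitor markers. Nes, the intermediate filament nestin, was lower in the tumours, at 115, 123, 75.2 and 130.3 CPM against 350.1, 438 and 406 CPM (-1.84 ± 0.18, SE, log2), whereas Prom1, the stem cell antigen CD133, was higher at 11.6, 9.45, 8.91 and 13.2 CPM against 3.08, 1.53 and 1.90 CPM (2.31 ± 0.24). Of 20 radial glia and stem cell markers 6 were higher and 2 lower. SOX factors had 4 higher and 4 lower of 16 tested, and 7 higher and 3 lower without YAP-M-dIDR 1. Sox2, a neural stem cell factor, had 23.2, 25.3, 27.996 and 24.5 CPM against 14.3, 5.27 and 10.3 CPM and Sox21 15.6, 29.1, 32.8 and 6.16 CPM against 2.56, 1.58 and 2.21 CPM, while Sox3 and Sox11, of early neural tissue, were lower at -2.72 and -1.57. Sox11 stood at 62.7, 65.8, 46.4 and 134 CPM against 239, 255 and 195 CPM. Early neuron genes also divided, with the cytoskeletal genes Stmn2 (-1.39 ± 0.19) and Tubb3 (-1.32 ± 0.33) lower and Dcx (1.47 ± 0.17) and Myt1 (2.98 ± 0.37) higher. Of 29 multiciliated ependymal genes 2 were higher and 1 lower, and 8 were higher without YAP-M-dIDR 1.

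Genes of mature brain cells were higher in the tumours where they were called. Mature neuron genes had 5 higher and none lower of 22 (median 0.76), with summed levels of 531 to 1311 CPM in the tumours and 295 to 951 CPM in YAP-M-dIDR. Gad2, which makes the transmitter GABA, had 16.7, 11.5, 39.2 and 42.003 CPM against 4.87, 1.13 and 3.49 CPM (3.11 ± 0.54, SE, log2). Astrocyte genes had 7 higher and none lower of 20 (median 0.86), at summed levels of 7057 to 8517 CPM against 2126 to 7424 CPM. Aldh1l1, a folate enzyme that marks astrocytes, had 47.5, 50.9, 48.7 and 48.3 CPM against 22.1, 10.1 and 11.4 CPM (1.74 ± 0.23). Oligodendrocyte lineage genes had 4 higher and none lower of 19, at 963 to 3899 CPM against 528 to 1597 CPM. In each of these lists YAP-M-dIDR 1 held the most of its group, and without it the counts were 10 neuron, 15 astrocyte and 12 oligodendrocyte genes. Oligodendrocyte calls also numbered 11 without tumour 1 and 8 without tumour 2. The part of surrounding brain tissue in these differences was not tested.

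Receptors and channels of neurons had the same direction. Glutamate and GABA receptor genes had 16 higher and 1 lower of 40, 25 higher without YAP-M-dIDR 1 and 8 with the 7 libraries fitted alone or without the Y-linked libraries. Without tumour 4, YAP-M-dIDR 2 or YAP-M-dIDR 3 it was 10. Voltage-gated channels had 15 higher and 4 lower of 70. The higher count was 29 without YAP-M-dIDR 1, and 8 without YAP-M-dIDR 2, without YAP-M-dIDR 3 or with the gene length trend removed, and 2 were lower without tumour 1. Protocadherins had 17 higher and 1 lower of 63, 9 higher without tumour 4 and 7 with the 7 libraries fitted alone. Kcnh5, a potassium channel, had 5.63, 3.30, 1.66 and 2.93 CPM in the tumours against 0.299, 0 and 0.309 CPM, and Cacnb3, a calcium channel subunit, was lower at 24.02, 19.9, 18.2 and 33.2 CPM against 86.0, 65.0 and 64.3 CPM (-1.59 ± 0.19, SE, log2). The receptor genes had a median length of 6600 bases and the channels of 5220 bases, on the side of the length trend where the tumours were higher.

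Blood cell genes were higher in the tumours where they were called, and vessel genes were called in both directions. Of 14 listed blood cell genes 8 were tested, 5 of them higher and none lower, at summed levels of 181 to 418 CPM in the tumours and 34.6 to 99.2 CPM in YAP-M-dIDR. Alas2, which begins heme synthesis in red cells, had 2.58, 5.97, 5.16 and 2.82 CPM against 0.299, 0.315 and 0.353 CPM, and the globin Hbb-bs 54.0, 117, 133 and 67.5 CPM against 10.4, 27.4 and 27.5 CPM. Endothelial genes had 5 higher and 4 lower of 20 (median log2 fold change 0.69), at 445 to 583 CPM against 345 to 469.9 CPM. By the edgeR adjusted p alone 12 were higher and 4 lower, where 20.6% and 22.9% of all tested genes were. Without YAP-M-dIDR 1 the counts of calls were 6 higher and 2 lower, 3 were higher without YAP-M-dIDR 2 and 2 lower without tumour 1. Pecam1, an endothelial adhesion protein, had 36.4, 34.2, 37.6 and 26.8 CPM against 15.8, 13.6 and 17.4 CPM (1.11 ± 0.18, SE, log2), and Plvap, of fenestrated vessels, was lower at 5.08, 3.15, 4.35 and 5.68 CPM against 11.4, 8.92 and 9.58 CPM (-0.98 without tumour 2). Of 12 choroid plexus genes 2 were higher and none lower (median log2 fold change -0.43), and none was called without the Y-linked libraries. Levels in this list varied within both groups. Ttr, the transport protein of choroid plexus, had 259, 1.74, 0.682 and 217 CPM in the tumours and 653, 60.7 and 7.02 CPM in YAP-M-dIDR, and was not called.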

How the data were processed

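RNA-seq counts of 7 mouse libraries, 4 of YAP-M tumours and 3 of YAP-M-dIDR, were compared, and 5 other RNA-seq libraries of the series (subventricular zone tissue and cultured progenitors that overexpress YAP) entered the fit to share one estimate of the spread. The submitters' processing notes name TopHat2 and the build mm10. Each deposited table gives 1 library as raw counts, whole numbers per gene without normalization. How reads were counted, with or without strand, and on which annotation is not stated, so reads of paralogs and overlapping or antisense genes may be shared or split.

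The 53090 entries were summed by symbol, and 18329 genes that reached 1 CPM in 2 or more of the 12 libraries were tested. Groups were compared by quasi-likelihood in edgeR 4.0.16 with TMM scaling (R 4.3.3), with p-values adjusted by Benjamini-Hochberg over all tested genes, and limma 3.58.1 and DESeq2 1.42.0 served as alternatives. A count of 3 corresponds to 0.110 to 0.135 CPM, and such limits cover counting error only. On simulated data for this comparison (17947 genes), 27 of 100 genes changed 2-fold and 85 of 100 changed 4-fold were called, with 5 unchanged genes. Replicates differed by more than counting noise (chi-square per gene 17.7 to 76.1 between libraries of a group).

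The genes named were the 12 largest rises and 12 largest falls among called genes whose groups do not overlap, with at least 5 CPM in the higher group, the 8 largest differences in CPM, up to 3 called members of each gene list in each direction, and up to 2 uncalled members of lists with few calls. Axl, Ajuba, Evx2, Hoxb13 and Cdkn1a fall outside this rule and were named after their values were seen. Some genes that the rule covers are not reported here. The libraries compared, the gene lists and this rule were chosen with earlier results of these data known. Promoter sequences came from RefSeq (GRCm38.p6) by gene symbol, and 12672 of the 18329 tested genes matched.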

Additional observations from a re-analysis of the deposited data

Results flagged for a closer look

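Among the named genes, the value of 1 of the 4 tumours lay far from the other 3 at 17 genes reported here of 311 tested, by Dixon's test within the group, which chance alone passes in about 1 in 20 groups. The number is thus close to what chance gives over this many genes. Tumour 4 stood above the other tumours for Acta1, a muscle actin, at 8.94 CPM, for Brd2, a bromodomain protein, at 186 CPM, and for Cd163, a macrophage scavenger receptor, at 3.90 CPM. It was also the high tumour for Hoxb8 at 3.23 CPM, and the low one for Ptch1 at 38.6 CPM. Tumour 3 was the high one for Cnbd2 at 8.82 CPM, S100a9, a neutrophil protein, at 5.80 CPM, Sox3 at 2.56 CPM and Tnnt2, a cardiac troponin, at 1.02 CPM, and the low one for Dio3 at 0.511 CPM. Tumour 2 was the high one for Cxcl9 at 6.595 CPM, Hoxa13 at 1.67 CPM, Il1rn at 5.89 CPM and Mlxipl, a glucose-responsive factor, at 10.5 CPM. It was the low one for Pcdhga8, a protocadherin, at 1.52 CPM and Plac8 at 7.15 CPM. Tumour 1 was the low one for Dcx at 4.78 CPM.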

How the results depend on the processing

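Of 281 called genes among those named, between 241 and 281 kept their call under each alternative that tested them, apart from the minimum of 5 CPM, where 245 of the 247 tested did, and none changed sign. Among them the call was lost most often, for 38 genes, without the 2 libraries with Y-linked transcripts. These genes were picked from the calls for small adjusted p or large change, which favours keeping a call. Of all 1761 higher and 1242 lower calls, that setting kept 1182 and 951. With the 7 libraries fitted alone 1236 and 1041 were kept, and without YAP-M-dIDR 3, 1294 and 1052. With a minimum of 5 CPM, 1292 genes were higher and 819 lower. The adjusted p alone, with no limit on size, gave 3768 and 4199. Quantile normalization with limma gave 1601 higher and 1598 lower, DESeq2 2042 and 1125, and median-ratio size factors 1888 and 1120, so that the split between directions depended on the scaling. No filter on low counts gave 2200 and 1245. With the trend with gene length removed, an alternative chosen after seeing the data, the counts were 1775 and 1132. When single libraries were left out, 1430 to 2566 genes were higher and 1045 to 1282 lower. The difference in Yap1 on the log2(CPM + 1) scale was -2.57, and it ran from -3.40 to -2.005 when single libraries were left out, with exact permutation p of 0.1 or 0.0667, the smallest that these smaller designs allow. The replicate numbers did not pair the libraries: deviations of same-numbered libraries correlated at 0.001, 0.386 and 0.124. With the replicate number as a block, 1628 genes were higher and 1297 lower. On simulated data for this comparison, 50 of 100 genes changed 2-fold passed the adjusted p and 27 also the limit on size. That limit lies at 2-fold itself, and far fewer genes differed in the simulation than in the data, as described above.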
